A study of Mus musculus with 12 samples.

Results

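The gene *Clspn* and 9 other genes of DNA replication and cell division (*Timeless*, *Tipin*, *Chek1*, *Atr*, *Mcm2*, *Mcm5*, *Mki67*, *Top2a* and *Pcna*) were followed in RNA-seq libraries of the mouse striatum. They were found by their gene symbols and are 10 of 52169 symbols, with 103 of the listed transcripts. *Clspn* was chosen by its measured fall with the lesion in the chronic treatment, so its values in every comparison that uses a chronic library are given as a description with no test. The other 9 genes were set beside it to see whether that fall was shared by genes of the replication checkpoint and of dividing cells.

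All mice were C57BL/6J, and the study's methods describe them as females; their age is not given in the sources used here. Each received 6-OHDA, a toxin of dopamine neurons, into the medial forebrain bundle of the right hemisphere (1 µl at 3 µg per µl) under desipramine (25 mg/kg), which spares noradrenergic neurons, and recovered for 2 weeks. L-DOPA (10 mg/kg) was then given with benserazide (7.5 mg/kg) as a single dose (acute) or daily on 9 days (chronic), and 3 striatal punches 2 mm across were taken 1 hour after the last dose from the lesioned or the unlesioned side. The 4 groups are therefore acute unlesioned, acute lesioned, chronic unlesioned and chronic lesioned, with 3 libraries each. The procedure is described as lowering striatal tyrosine hydroxylase by at least 80%, and no value for the single mice was used here. Every group carries L-DOPA, and the lesion was always on the right, so the effect of the lesion, that of L-DOPA on a lesioned striatum and that of the hemisphere cannot be told apart.

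Replication is watched over by a checkpoint. When a fork stalls, the kinase ATR is activated on exposed single-stranded DNA, and the adaptor claspin, the product of *Clspn*, presents the kinase CHK1 (*Chek1*) to it. Timeless and Tipin form a complex that travels with the fork and holds claspin there, MCM2 and MCM5 are subunits of the ring-shaped replicative helicase, PCNA is the sliding clamp of the DNA polymerases, topoisomerase IIα (*Top2a*) untangles DNA and Ki-67 (*Mki67*) marks cells in cycle. Striatal neurons of the adult do not divide, and cycling cells in this tissue are mainly glial precursors and progenitors of the neighbouring ventricular wall.

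Genes of this kind are often driven by E2F factors, and the promoters of *Clspn*, *Chek1* and *Mcm5* are shown because they were the members whose promoter held an E2F-type sequence. The sequences are those of RefSeq (GRCm38.p6), from 250 bases before to 50 after the start, and 9 of the 10 genes matched an entry (all but *Tipin*). Searched on both strands were TTTGGCGC, TTTCCCGC, TTTGCCGC, TTTCGCGC, TTTGGCGG and TTTCCCGG, counted together and shown in capitals; matches may overlap. The *Clspn* window lies at chr4:126556730-126557029 (+ strand), the *Chek1* window at chr9:36726609-36726908 (- strand) and the *Mcm5* window at chr8:75109259-75109558 (+ strand).
Clspn: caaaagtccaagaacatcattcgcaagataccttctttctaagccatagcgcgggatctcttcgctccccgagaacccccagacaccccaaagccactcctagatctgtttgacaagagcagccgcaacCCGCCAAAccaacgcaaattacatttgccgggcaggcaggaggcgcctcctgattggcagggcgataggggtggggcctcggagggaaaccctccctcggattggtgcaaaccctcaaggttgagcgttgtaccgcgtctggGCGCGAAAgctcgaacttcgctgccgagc
Chek1: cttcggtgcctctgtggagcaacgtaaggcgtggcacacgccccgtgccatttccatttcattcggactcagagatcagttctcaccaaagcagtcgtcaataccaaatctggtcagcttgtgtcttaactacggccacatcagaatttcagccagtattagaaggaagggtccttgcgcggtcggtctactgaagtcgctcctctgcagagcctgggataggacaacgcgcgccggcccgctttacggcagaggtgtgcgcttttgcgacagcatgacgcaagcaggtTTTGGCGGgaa
Mcm5: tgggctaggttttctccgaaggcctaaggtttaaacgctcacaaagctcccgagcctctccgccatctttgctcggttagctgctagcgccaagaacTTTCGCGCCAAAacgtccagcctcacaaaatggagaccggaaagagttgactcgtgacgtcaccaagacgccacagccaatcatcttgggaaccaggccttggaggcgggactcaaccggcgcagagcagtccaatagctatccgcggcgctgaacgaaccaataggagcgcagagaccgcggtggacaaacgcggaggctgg

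In *Clspn* both matches lie on the opposite strand, TTTGGCGG and TTTCGCGC, so that the capitals hold their reverse complements; the leftmost base of each in the printed line lies at position -121 and at position 22, counted from the start of the gene. In *Mcm5* the capitals hold TTTCGCGC on the gene's strand and, overlapping it, TTTGGCGC on the other. Of all 32851 promoters of this length 3.98% held at least 1 of the 6 sequences. The CCAAT box (CCAAT, both strands), found in 37.4% of all promoters, was present in 6 members (*Clspn*, *Mcm2*, *Mcm5*, *Mki67*, *Top2a* and *Pcna*). The CHR element (TTTGAA, both strands), found in 17.9%, was present in *Mcm2*, *Mki67* and *Top2a*, and the CRE (TGACGTCA, which reads the same on both strands), found in 1.79%, in *Mcm5*. A match is a description of letters in this window and not a measured site.

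The deposited values are read counts per transcript on the mm9 genome, and one read can add to several overlapping transcripts. Totals over all transcripts ran from 87695043 to 173116525 counts per library, and from 18373807 to 36492574 when a single transcript per gene was taken. Each gene is represented by its transcript with the highest mean count, as CPM, the count scaled to a library total of 1000000 after TMM adjustment. The 9 marker genes of striatal medium spiny neurons summed to between 1797 and 2420 CPM in every library, but single markers moved in opposite directions. With the lesion, 4 were called higher and 4 lower after acute L-DOPA, where 8.16% of all genes were called higher and 7.16% lower. After chronic L-DOPA 2 were called higher and 1 lower (2 and 2 by DESeq2), where the shares were 8.45% and 5.20%, with *Penk* and *Tac1* higher and *Drd1a* lower in both. The 6 markers of cortical glutamatergic neurons ranged widely, from 13.0 to 30.2 CPM in the acute unlesioned, 1.80 to 15.7 in the acute lesioned, 5.23 to 41.3 in the chronic unlesioned and 1.64 to 22.5 CPM in the chronic lesioned libraries, with no gene of the list at 0 throughout. Of these 6, *Neurod6* was called lower with the lesion after acute L-DOPA by edgeR and 0 by DESeq2, with 5 lower at an unadjusted p under 0.05 and a median of -1.39 on the log2 scale. After chronic L-DOPA 5 were tested and 0 called by edgeR or DESeq2, with 1 lower at an unadjusted p under 0.05 and a median of -1.63. The chronic unlesioned library 2 held choroid plexus markers at 466 CPM against at most 3.03 elsewhere. Their part in the results below was not tested.

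The genes were expressed at low levels. Per kilobase of the transcript shown, the mean level over the 12 libraries was highest for *Pcna*, at 3.12 CPM per kb (range 1.91 to 4.81), followed by *Tipin* at 0.902 (0.666 to 1.24), *Clspn* at 0.637 (0.193 to 1.14), *Mcm5* at 0.545 (0.383 to 0.787), *Atr* at 0.293 (0.254 to 0.349), *Mcm2* at 0.243 (0.152 to 0.332) and *Timeless* at 0.158 (0.130 to 0.218). The lowest levels were those of *Top2a* at 0.0846 CPM per kb (0.0140 to 0.195), *Chek1* at 0.0555 (0.0287 to 0.0905) and *Mki67* at 0.0452 (0.0172 to 0.0753). *Pcna* lay above every other member in every library, while the ranges of each other pair of neighbours in this order overlapped, except those of *Mcm5* and *Atr*. In whole reads, *Chek1* rested on 11 to 36 counts per library and *Top2a* on 8 to 109, against 345 to 963 for *Pcna* and 88 to 824 for *Clspn*. A count of 3 reads corresponds to between 0.0171 and 0.0347 CPM.

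**Figure D1:**
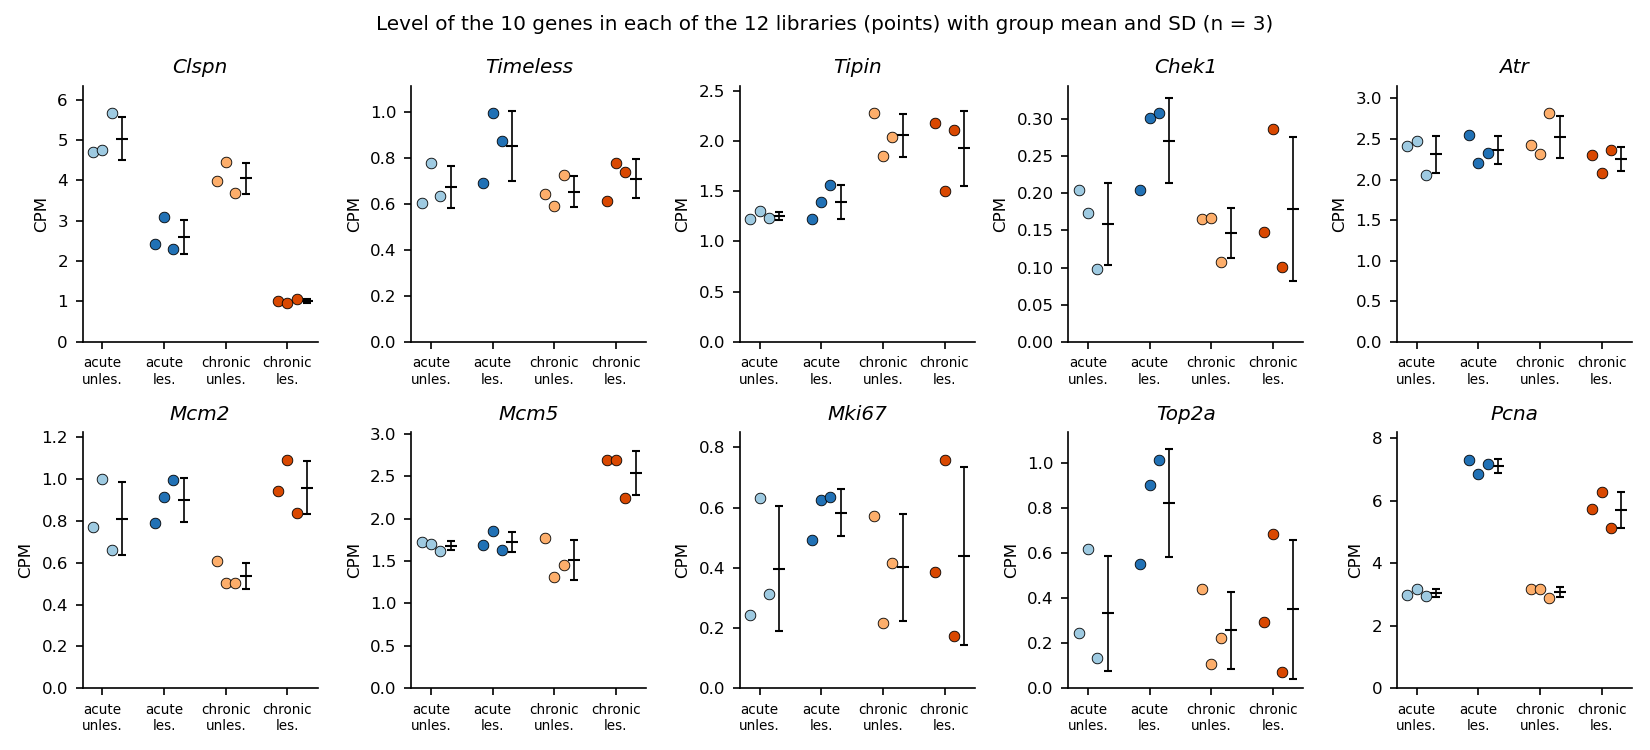
Level of each of the 10 genes (CPM, y axis, from 0) in the 12 libraries, with points for single libraries by group (acute unlesioned, acute lesioned, chronic unlesioned, chronic lesioned) and bars for the group mean and SD (n = 3). *Clspn* is lower in both lesioned groups, lowest in the chronic lesioned one at 0.962 to 1.06 CPM, *Pcna* is higher in both, and *Mcm5* stands out in the chronic lesioned group only.

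*Clspn* (chr4:126234224-126271147, + strand, mm9; 26 exons in the transcript shown) stood lower on the lesioned side in both treatments. In the acute unlesioned libraries it stood at 4.69, 4.75 and 5.66 CPM and in the acute lesioned ones at 2.43, 3.09 and 2.29 CPM. The groups did not overlap, and all 3 lesioned libraries were lower. It fell by 0.95 on the log2 scale, a level 1.94 times lower (standard error 0.11; edgeR's quasi-likelihood test, adjusted p = 2.06e-04). In the acute comparison 7.16% of all genes tested were called lower. In bulk tissue, fewer cells of a type and less RNA per cell cannot be told apart.

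In the chronic unlesioned libraries *Clspn* stood at 3.99, 4.47 and 3.70 CPM and in the chronic lesioned ones at 1.00, 0.962 and 1.06 CPM. The difference, for which the gene was selected, was -2.0 on the log2 scale (standard error 0.12), a level 4.01 times lower. Between treatments *Clspn* differed by -1.36 (standard error 0.14) within the lesioned and by -0.31 (0.10) within the unlesioned striatum, and the lesion effect was lower by 1.05 (0.17) after chronic than after acute L-DOPA, all on the log2 scale and as a description. The chronic lesioned libraries thus held the lowest levels of the 4 groups, with no overlap with any other group.

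The deposited list holds 14 transcripts of *Clspn*, of which 10 passed the filter on low counts in the acute and 9 in the chronic comparison. Of the 10, 9 were called lower in the acute comparison, and the log2 fold changes of the 10 ran from -1.11 to -0.86. In the chronic comparison the 9 ran from -2.76 to -1.89. These transcripts share reads, so they are not independent.

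The reads were spread unevenly along the gene, which was noticed after the values were seen. The full-length transcript in the GENCODE annotation of the same assembly (NCBIM37) has 26 exons. The 4 transcripts that end before exon 5 held between 0.0707 and 1.49 counts per kb on average and never more than 3 counts in a library. Of these, the single-exon one (0.0707) runs on into the first intron and another (0.363) into the intron after exon 4. The 2 that span exons 1 to 3 held 1.37 and 1.49 counts per kb. A transcript that spans exons 3 to 8 held 11.7 counts per kb, and the 6 that begin in exon 8 or beyond held from 72.3 to 102 counts per kb, against 81.9 for the full-length one. Coverage was thus lowest over the first exons and higher beyond exon 8.

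As a comparison, short transcripts of other genes were taken that start within 100 bases of the start of the gene's shown transcript, have at least 2 exons and 200 bases, and at most 30% of its length, where the shown transcript had a mean of at least 20 counts. Over 3614 genes with such a transcript their median coverage per kb was 0.776 of that of the shown transcript. For *Clspn* it was 0.0175, lower than in all but 0.581% of these genes. *Timeless* had 0.54, *Atr* 0.521, *Mki67* 0.796 and *Top2a* 0.42, and the remaining members had no such transcript. The cause of the low coverage was not tested.

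**Figure D2:**
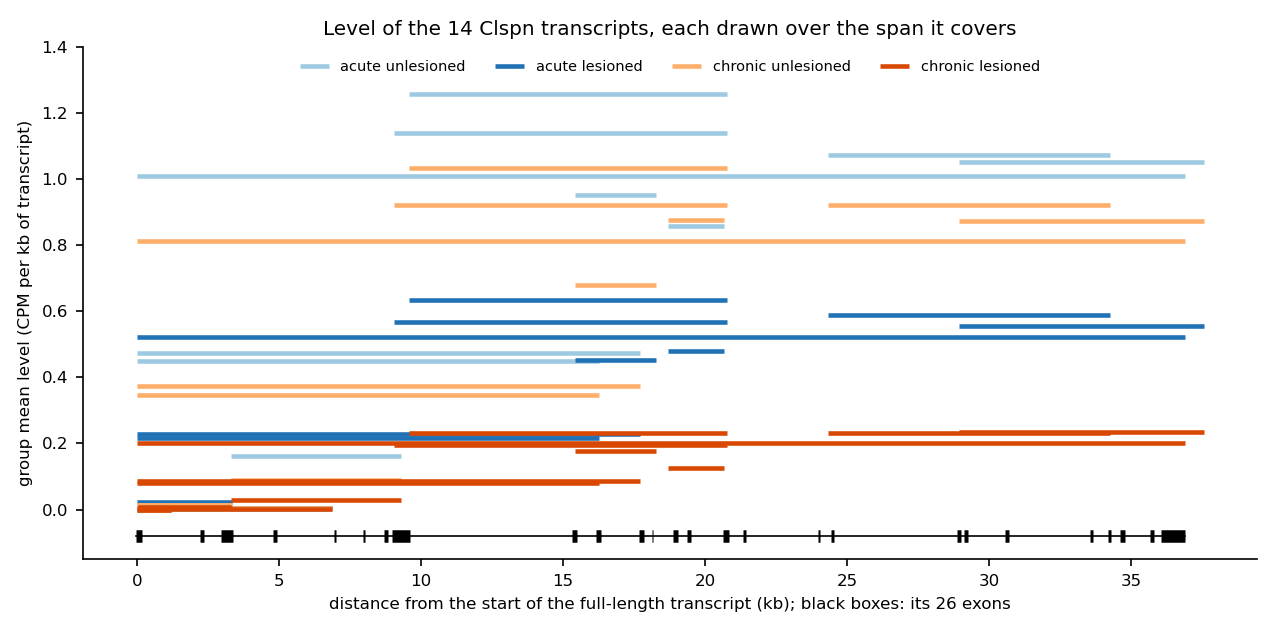
Group mean level of each of the 14 *Clspn* transcripts (CPM per kb of transcript, y axis), drawn as a line over the span it covers against the distance from the start of the full-length transcript (kb, x axis), with that transcript's 26 exons as black boxes; colours give the 4 groups. Transcripts that end before exon 5 lie near 0 in every group, and those that reach further show the chronic lesioned group lowest.

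Other symbols at this locus were compared for position. The single transcript of another symbol that overlaps *Clspn* is ENSMUST00000121439 on the opposite strand (chr4:126261753-126262053), which held a mean of 0.833 counts and was not tested. Within 500 kb of *Clspn*, 18 genes had a mean of at least 1 CPM, and 2 were called lower and 2 higher in the acute comparison, where the shares over all genes were 7.16% and 8.16%. In the chronic comparison 3 were called lower and 2 higher, with shares over all genes of 5.20% and 8.45%. The nearest of these 18 on either side were both lower. *Eif2c4*, an Argonaute gene with a gap of 23508 bases to *Clspn*, fell by 0.43 on the log2 scale after acute L-DOPA (standard error 0.08, edgeR adjusted p = 0.00622) and by 0.83 after chronic L-DOPA (0.11, adjusted p = 8.78e-04). *5730409E04Rik*, which begins 15311 bases beyond *Clspn*, fell by 0.24 (0.06, adjusted p = 0.0253) and by 0.54 (0.08, adjusted p = 0.0011).

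The acute call of *5730409E04Rik* was lost without acute unlesioned library 2 (adjusted p = 0.111) or 3 (0.081), or without any acute lesioned library (0.0505 to 0.0631). *Eif2c1* and *Psmb2*, the next expressed genes on each side, passed no test in either comparison, with log2 fold changes of -0.078 and -0.072 after acute and -0.076 and 0.17 after chronic L-DOPA. *Stk40*, 415937 bases away, was higher, by 0.71 and by 2.06 on the log2 scale, and so was *Sfpq* by 0.41 and 0.42, a call lost with counts summed over transcripts after acute (0.20, adjusted p = 0.0894) and without chronic unlesioned library 3 after chronic L-DOPA (0.36, 0.0509). *Thrap3*, at 354256 bases, was called lower after chronic L-DOPA, by 0.26 (adjusted p = 0.0493), and stood at -0.016 after acute L-DOPA (0.892). Its alternatives are not listed here. The genes around *Clspn* were singled out after their values were seen.

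**Figure D3:**
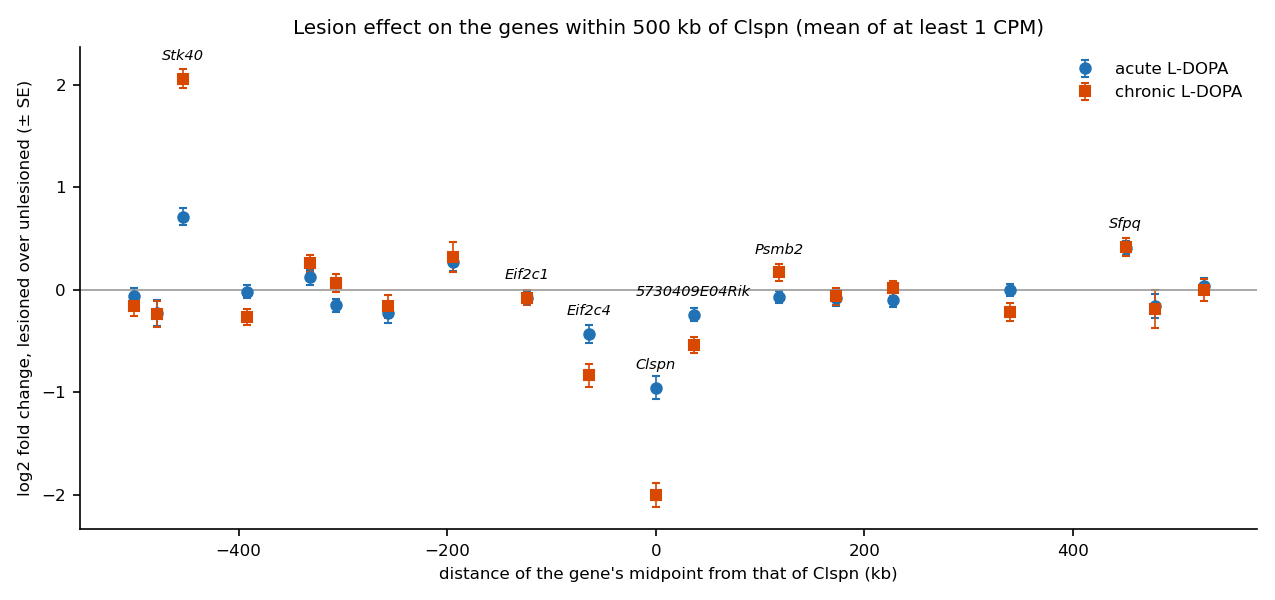
Log2 fold change of lesioned over unlesioned striatum (y axis, bars ± SE) of the genes within 500 kb of *Clspn* with a mean of at least 1 CPM, against the distance between gene midpoints (kb, x axis), after acute (circles) and chronic L-DOPA (squares). *Eif2c4* and *5730409E04Rik*, beside *Clspn*, lie below 0 in both comparisons, and *Stk40* rises to 2.06.

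The 5 genes whose levels ran most like those of *Clspn* over the 12 libraries (Pearson's r of log2(CPM + 0.1) among 12789 genes with a mean of at least 1 CPM) were *Scn4b* at 0.98, *Neto2* at 0.979, *Rxra* at 0.976, *Dusp7* at 0.972 and *Gabarapl1* at 0.969. *Scn4b*, a sodium channel subunit abundant in medium spiny neurons, went from 485 to 341 CPM with the lesion after acute and from 454 to 218 CPM after chronic L-DOPA. The libraries share their groups, so these values describe a common order of the 4 groups. Among the other members the same correlation was -0.85 for *Mcm5*, -0.70 for *Pcna* and -0.57 for *Mcm2*, and between -0.37 and 0.21 for the remaining 6.

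Neither partner that holds claspin at the fork was called lower with the lesion. *Timeless* (chr10:127669136-127689988, + strand) stood at 0.604, 0.778 and 0.637 CPM in the acute unlesioned and at 0.690, 0.995 and 0.876 CPM in the acute lesioned libraries. The groups overlapped, at 0.33 on the log2 scale (standard error 0.17, edgeR adjusted p = 0.211). Each lesioned library lay above the unlesioned one of the same number, and with the replicate block the value was 0.34 (adjusted p = 0.0937). In the chronic libraries *Timeless* stood at 0.645, 0.593 and 0.726 CPM unlesioned and at 0.615, 0.777 and 0.738 CPM lesioned, again overlapping (0.12, standard error 0.17, adjusted p = 0.714). Of its 22 transcripts, 15 were tested in the acute comparison, with log2 fold changes from 0.0043 to 0.85, and 13 in the chronic one, from 0.085 to 0.23.

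*Tipin* (chr9:64129410-64153229, + strand) was called between the treatments in the unlesioned striatum and not between the sides. It stood at 1.23, 1.30 and 1.24 CPM in the acute unlesioned and at 2.28, 1.85 and 2.04 CPM in the chronic unlesioned libraries, with no overlap. The rise was 0.71 on the log2 scale (standard error 0.11, edgeR adjusted p = 0.0144), and all 5 of its transcripts were called higher. In that comparison 1.07% of all genes tested were called higher and 1.99% lower, and *Tipin* was the 1 called of the other 9 members. The call was lost without any acute unlesioned library (adjusted p = 0.0921, 0.0721 and 0.053) or without chronic unlesioned library 3 (0.0519). In the lesioned striatum it stood at 1.23, 1.39 and 1.57 CPM after acute and at 2.17, 1.5 and 2.11 CPM after chronic L-DOPA, where the groups overlapped through chronic lesioned library 2 (0.47, standard error 0.16, adjusted p = 0.0556). It was called without that library (0.63, adjusted p = 0.00475), without a filter on low counts (0.48, 0.0387) and in the fit on all 12 libraries (0.47, 0.0255), the range over the alternatives being 0.00475 to 0.19. Its lesion effects were 0.15 (0.12) after acute and -0.094 (0.15) after chronic L-DOPA, with adjusted p of 0.428 and 0.758. Between the unlesioned groups, edgeR called 2 of 5 markers of oligodendrocyte precursors, 2 of 7 of microglia and 2 of 6 of astrocytes lower after chronic L-DOPA. Of 6 oligodendrocyte markers 0 were called. By DESeq2 these counts were 3, 2, 3 and 0, and the part of these cells was not tested.

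The kinases that claspin connects were not called lower either. *Atr* (chr9:95758016-95852063, + strand) ranged only from 2.05 to 2.82 CPM over the 12 libraries, its group means from 2.25 to 2.52 CPM. Its log2 fold change was 0.037 (standard error 0.10, edgeR adjusted p = 0.857) after acute and -0.17 (0.11, adjusted p = 0.406) after chronic L-DOPA. Antisense transcripts named LOC100504734, 1700065D16Rik and AK038145 overlap *Atr*, each with a mean of at most 31.8 counts.

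*Chek1* (chr9:36516067-36534243, - strand) was sparse, at 0.205, 0.173 and 0.0974 CPM in the acute unlesioned and 0.205, 0.301 and 0.308 CPM in the acute lesioned libraries. The groups overlapped only between library 1 of each side (0.73, standard error 0.30, edgeR adjusted p = 0.137). In the chronic libraries it stood at 0.166, 0.167 and 0.108 CPM unlesioned and 0.148, 0.287 and 0.1 CPM lesioned (0.31, standard error 0.40, adjusted p = 0.69). A transcript of *Stt3a* overlaps *Chek1* on the same strand with a mean of 68.8 counts against 22.3 for *Chek1*, and its log2 fold changes were 0.13 after acute and 0.020 after chronic L-DOPA; how reads were shared between them was not tested.

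*Pcna* (chr2:132074898-132079050, - strand) rose in the lesioned striatum in both treatments. It stood at 3.00, 3.18 and 2.96 CPM in the acute unlesioned and at 7.30, 6.85 and 7.16 CPM in the acute lesioned libraries. All 3 lesioned libraries lay above all unlesioned ones, a rise of 1.23 on the log2 scale (standard error 0.07, 2.34-fold, edgeR adjusted p = 2.78e-07). In the fit reported, which does not pair the sides, it was the 1 gene called among the other 9 members in the acute comparison. There 8.16% of all genes tested were called higher. In the chronic libraries *Pcna* went from 3.18, 3.18 and 2.90 to 5.74, 6.27 and 5.11 CPM, again without overlap (0.89, standard error 0.10, 1.85-fold, adjusted p = 3.00e-04).

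Within the lesioned striatum *Pcna* was lower after chronic than after acute L-DOPA, by 0.32 on the log2 scale (standard error 0.09, edgeR adjusted p = 0.0296). That call was lost without any acute lesioned library (adjusted p from 0.0704 to 0.0953), and without chronic lesioned library 1 (0.079) or 3 (0.1). The change of its lesion effect was -0.33 (0.12, adjusted p = 0.137), and in the fit blocked on replicate number it was called (adjusted p = 0.0435, the range over the alternatives being 0.0435 to 0.263). All 10 *Pcna* transcripts were called higher in the acute comparison (1.23 to 4.11) and all 9 tested ones in the chronic comparison (0.89 to 1.07). A 525-base transcript of LOC100503576 lies inside *Pcna* on the opposite strand with a mean of 49.8 counts against 549 for *Pcna*. Strand settings are not given in the sources used here, and how reads were shared between both was not tested.

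Glial markers were also measured beside *Pcna*. The 6 astrocyte markers summed to 178 to 201 CPM in the acute unlesioned, 220 to 276 in the acute lesioned, 147 to 172 in the chronic unlesioned and 181 to 241 CPM in the chronic lesioned libraries, without overlap between the sides. Of these, *Gfap* and *Gja1* were called higher after acute L-DOPA, 2 of 6 against 8.16% of all genes, and *Gfap* after chronic L-DOPA, 1 of 6 against 8.45%. The 7 microglia markers summed to 61.8 to 64.4, 67.9 to 80.4, 42.3 to 55.9 and 44.2 to 56.4 CPM in the same order, so the sides overlapped after chronic L-DOPA. Of the 7, 2 (*C1qa* and *Tmem119*) were called higher after acute L-DOPA. In the chronic comparison 0 were called higher by edgeR or DESeq2, also 0 at an unadjusted p under 0.05. The 6 oligodendrocyte markers summed to 2089 to 2326, 2114 to 3496, 1563 to 2234 and 1162 to 2099 CPM, and 1 (*Mag*) was called higher after acute L-DOPA by edgeR and 3 by DESeq2, with 4 at an unadjusted p under 0.05. In the chronic comparison 0 of them were called by edgeR or DESeq2, also 0 at an unadjusted p under 0.05. No marker of these lists was at 0 throughout, and the part of these cells in the result was not tested.

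Both helicase subunits rose with the lesion after chronic L-DOPA and passed no test after acute L-DOPA. *Mcm5* (chr8:77633427-77652338, + strand) stood at 1.72, 1.70 and 1.62 CPM in the acute unlesioned and at 1.69, 1.85 and 1.63 CPM in the acute lesioned libraries, which overlapped (0.036 on the log2 scale, standard error 0.10, edgeR adjusted p = 0.848). In the chronic libraries it went from 1.77, 1.31 and 1.46 CPM unlesioned to 2.69, 2.69 and 2.24 CPM lesioned. Every chronic lesioned library lay above the 9 other libraries. The rise was 0.75 (standard error 0.14, 1.68-fold, adjusted p = 0.00582), and all 6 transcripts were called. *Mcm5* was also higher in the chronic than in the acute lesioned libraries, by 0.56 (0.12, adjusted p = 0.0065).

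The lesion effect on *Mcm5* itself differed between the treatments, by 0.72 on the log2 scale (standard error 0.17, edgeR's interaction test over the 12 libraries, adjusted p = 0.0224). It was the 1 gene called in that test among the other 9 members, against 3.53% of all genes called higher and 1.56% lower. The call was lost without acute unlesioned library 1 (adjusted p = 0.0573) or 2 (0.0526), acute lesioned library 1 (0.054) or 3 (0.0533), chronic unlesioned library 3 (0.0504) or chronic lesioned library 1 (0.0554). The estimate stayed between 0.63 and 0.84 with any single library left out. With the replicate number as a block, 2 members were called, *Mcm5* (adjusted p = 0.0065, the range over the alternatives being 0.0065 to 0.0573) and *Pcna*. For the blocked fit the share of all genes called is not given here.

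*Mcm2* (chr6:88833470-88848697, - strand) went from 0.608, 0.501 and 0.504 CPM in the chronic unlesioned to 0.945, 1.09 and 0.838 CPM in the chronic lesioned libraries, without overlap (0.84, standard error 0.17, 1.79-fold, edgeR adjusted p = 0.00976). In the acute libraries it stood at 0.769, 1.00 and 0.660 CPM unlesioned and 0.788, 0.914 and 0.997 CPM lesioned, which overlapped (0.15, standard error 0.17, adjusted p = 0.604). The chronic unlesioned libraries held the lowest *Mcm2* levels of the 4 groups, at -0.60 against the acute unlesioned ones (0.18, adjusted p = 0.0993), while the lesioned groups of both treatments overlapped. The change of its lesion effect was 0.69 (0.24, adjusted p = 0.131). Together with *Pcna*, 3 of the other 9 members were called in the chronic lesion comparison, all higher, where 8.45% of all genes tested were called higher and 5.20% lower.

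**Figure D4:**
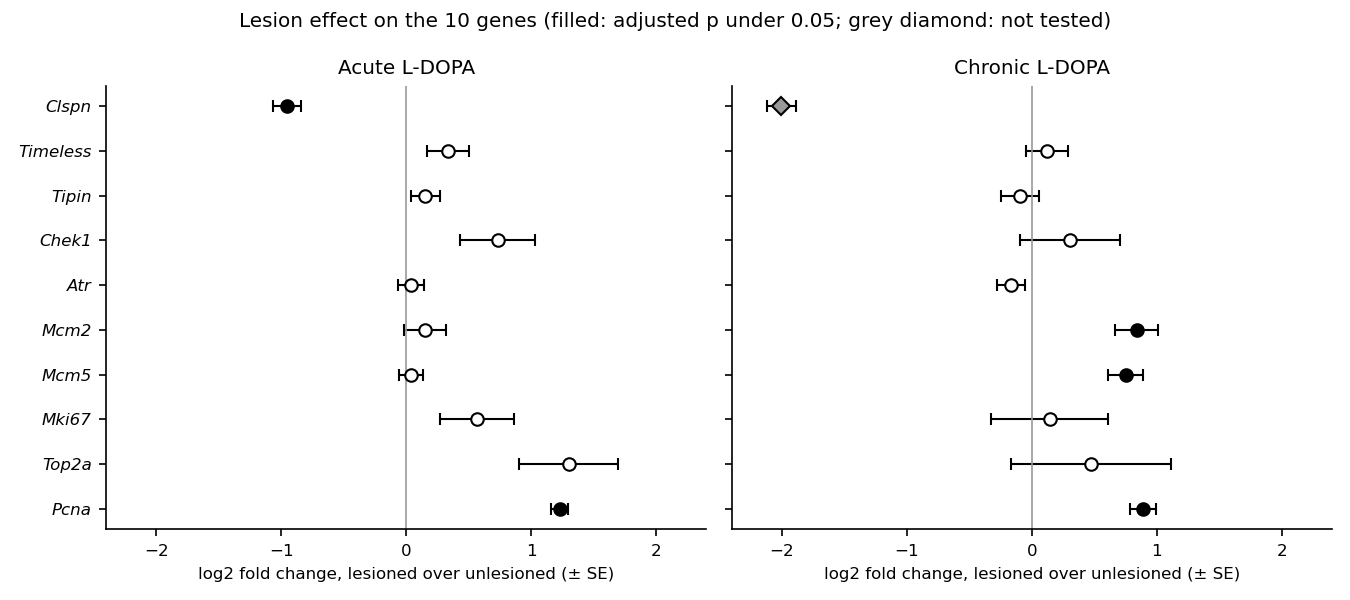
Log2 fold change of lesioned over unlesioned striatum (x axis, bars ± SE) of the 10 genes after acute (left) and chronic L-DOPA (right), with filled points for an adjusted p under 0.05, open points for the others and a grey diamond for *Clspn* after chronic L-DOPA, which has no test. *Clspn* is the only point well below 0 in either panel, and *Pcna* lies at 1.23 and 0.89.

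Both genes that mark cycling cells varied widely between libraries of the same group. *Top2a* (chr11:98854261-98885503, - strand) stood at 0.245, 0.619 and 0.135 CPM in the acute unlesioned and at 0.553, 0.902 and 1.02 CPM in the acute lesioned libraries. Acute unlesioned library 2 lay above acute lesioned library 1, so the groups overlapped (1.30, standard error 0.40, edgeR adjusted p = 0.051). With the replicate number as a block the rise was called (1.36, adjusted p = 0.00575), as it was without acute unlesioned library 2 (2.06, adjusted p = 0.00206) or acute lesioned library 1 (1.54, adjusted p = 0.0251); over all alternatives the adjusted p ran from 0.00206 to 0.217. With the block, the called members in the acute comparison were 2 of 9, *Pcna* and *Top2a*. The share of all genes called in that fit is not given here. In the chronic libraries *Top2a* stood at 0.442, 0.109 and 0.222 CPM unlesioned and at 0.296, 0.684 and 0.0729 CPM lesioned (0.47, standard error 0.64, adjusted p = 0.702).

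*Mki67* (chr7:142881471-142908062, - strand) stood at 0.245, 0.634 and 0.315 CPM in the acute unlesioned and at 0.493, 0.625 and 0.634 CPM in the acute lesioned libraries (0.56, standard error 0.30, edgeR adjusted p = 0.236). Without acute unlesioned library 2 it was called (1.07, adjusted p = 0.0136, the range over the alternatives being 0.0136 to 0.571). The chronic libraries held 0.571, 0.217 and 0.417 CPM unlesioned and 0.387, 0.758 and 0.173 CPM lesioned (0.14, standard error 0.47, adjusted p = 0.889). The same libraries were high in both genes, and over the 12 libraries *Mki67* and *Top2a* had a Pearson's r of 0.92, *Chek1* and *Top2a* 0.84, while *Clspn* and *Top2a* had -0.097; the libraries share their groups and these genes rest on few counts.

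Chronic lesioned library 2 was the highest of its group in *Mki67*, *Top2a* and *Chek1*. Between the chronic and the acute lesioned libraries, 2 of the other 9 members were called, *Mcm5* higher and *Pcna* lower, against 12.5% of all genes called higher and 13.1% lower. Without that library 6 members were called, and the share of all genes called in that fit is not given here. Among the 6 were *Top2a* at -2.21 (edgeR adjusted p = 0.00199, against -1.21 and 0.0994 with that library), *Mki67* at -1.08 (0.0186) and *Chek1* at -1.12 (0.0343). Over all alternatives the adjusted p of these 3 reached 0.329, 0.992 and 0.646. The 6 markers of neural progenitors and neuroblasts summed to between 9.11 and 13.3 CPM in the acute unlesioned, 13.6 and 17.7 in the acute lesioned, 10.1 and 14.7 in the chronic unlesioned and 12.5 and 21.5 CPM in the chronic lesioned libraries, with chronic lesioned library 2 the highest of all and no marker at 0 throughout. Of these 6, 2 rose with the lesion after acute L-DOPA (*Nes* and *Dlx2*; 3 by DESeq2), against 8.16% of all genes, and 1 after chronic L-DOPA (*Sox11*; 1 by DESeq2), against 8.45%. The 5 markers of oligodendrocyte precursors summed to 57.1 to 61.8, 66.2 to 76.8, 36.3 to 50.4 and 32.1 to 49.5 CPM in the same order, and 1 of the 5 (*Olig1*) rose after acute L-DOPA by edgeR and 2 by DESeq2. After chronic L-DOPA 0 rose by edgeR or DESeq2, also 0 at an unadjusted p under 0.05. The part of these cells in the results was not tested.

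The wider pathway was read from 4 lists that hold none of the 10 genes. Of 17 further checkpoint genes, all tested, 2 fell after acute and 3 after chronic L-DOPA, with medians of -0.11 and -0.13 on the log2 scale against 0.015 and -0.015 over all genes tested, of which 7.16% and 5.20% were called lower. *Etaa1*, which activates ATR by a route of its own, fell in both, by 0.61 (standard error 0.10, edgeR adjusted p = 0.00163) and by 0.70 (0.11, adjusted p = 0.00286). *Wee1*, the kinase that holds back mitosis, fell by 0.35 after acute L-DOPA (0.09, adjusted p = 0.021). *Rad1*, a subunit of the checkpoint clamp, fell by 0.62 (0.14, adjusted p = 0.0158) and *Rad17*, which loads that clamp, by 0.44 (0.11, adjusted p = 0.0299) after chronic L-DOPA.

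*Etaa1* kept its call in all 13 alternatives of both comparisons. *Wee1* lost it without acute unlesioned library 2 (adjusted p = 0.0933) or 3 (0.0514) or acute lesioned library 1 (0.0678). *Rad1* lost it without chronic unlesioned library 1 (0.0592) or chronic lesioned library 1 (0.0543) or 3 (0.0685), and *Rad17* without chronic unlesioned library 1 (0.0914) or 2 (0.087) or chronic lesioned library 1 (0.082) or 3 (0.115). No checkpoint gene was called higher in either comparison by edgeR or DESeq2; at an unadjusted p under 0.05 edgeR gave 1 in the acute and 0 in the chronic comparison.

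Of 21 genes of origin licensing and firing, all tested, 3 rose after acute L-DOPA, with a list median of 0.054, where 8.16% of all genes were called higher. *Orc1*, a subunit of the origin recognition complex, held 17, 13 and 4 counts in the acute unlesioned and 112, 70 and 87 in the acute lesioned libraries (3.44, standard error 0.27, edgeR adjusted p = 5.05e-06). *Cdc6*, which loads the helicase with it, went from 10, 14 and 4 to 49, 34 and 47 counts (2.66, 0.33, adjusted p = 2.72e-04), and the helicase subunit *Mcm4* rose by 0.49 (0.08, adjusted p = 0.00225). These 3 were called in all 13 alternatives. After chronic L-DOPA, 18 were tested, with a median of 0.096, and *Dbf4*, the activator of the kinase CDC7, was the 1 called higher, against 8.45% of all genes (1.20, standard error 0.35, adjusted p = 0.0494). That call was lost in 6 of 13 alternatives: with a single transcript per gene (0.0524), without chronic unlesioned library 2 (0.109) or 3 (0.179), and without any chronic lesioned library (0.0808, 0.145 and 0.0577). In the chronic libraries *Orc1* held 11, 10 and 6 counts unlesioned and 7, 19 and 6 lesioned, and *Cdc6* 7, 5 and 5 against 7, 16 and 2. *Orc1* and *Cdc6* were lower in the chronic than in the acute lesioned libraries, by 2.97 (0.30, adjusted p = 1.04e-04) and 2.27 (0.43, adjusted p = 0.00415), in all 13 alternatives. The lesion effect on *Orc1* was lower by 2.91 after chronic L-DOPA (0.63, interaction test, adjusted p = 0.0145), a call lost without chronic unlesioned library 1 (-2.65, 0.0592).

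Of the DNA synthesis genes 17 were tested in each lesion comparison. After acute L-DOPA 2 rose, against the same 8.16% of all genes, with a list median of 0.17: *Pold1*, the catalytic subunit of polymerase delta, by 0.57 (standard error 0.10, edgeR adjusted p = 0.00426; 13 of 13 alternatives), and *Rrm2*, a subunit of ribonucleotide reductase, by 0.95 (0.25, adjusted p = 0.0303). *Rrm2* lost its call in 6 of 13 alternatives: with counts summed over transcripts (0.0614), in a fit on all libraries (0.157), without acute unlesioned library 1 (0.0859) or 3 (0.103) and without acute lesioned library 2 (0.0909) or 3 (0.0958). After chronic L-DOPA none was called by edgeR or DESeq2, with 1 higher and 2 lower at an unadjusted p under 0.05 and a median of 0.037.

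Of the genes of dividing cells, 23 were tested after acute L-DOPA with a median of 0.28, and *Cenpa*, the histone variant of centromeres, was the 1 called higher, against 8.16% of all genes (1.46, standard error 0.27, edgeR adjusted p = 0.00492; 13 of 13 alternatives). Of 19 tested after chronic L-DOPA, with a median of 0.18, *Tpx2*, a spindle assembly factor, was the 1 called higher, against 8.45% of all genes (1.05, 0.26, adjusted p = 0.0278). It lost its call without chronic unlesioned library 3 (0.103) or any chronic lesioned library (0.0853, 0.0504 and 0.051). No gene of this list fell in either comparison by edgeR or DESeq2, also at an unadjusted p under 0.05.

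Between the chronic and the acute lesioned libraries, 2 checkpoint genes were called lower, 3 licensing genes lower and 1 higher, 3 DNA synthesis genes lower and 1 higher, and 2 genes of dividing cells lower and 1 higher, where 12.5% of all genes were called higher and 13.1% lower. DESeq2 called 1 checkpoint gene lower, and 2 licensing genes lower and 0 higher. It called 3 DNA synthesis genes lower and 1 higher, and 1 gene of dividing cells lower and 1 higher. In the same comparison 6 of 6 oligodendrocyte markers, 5 of 7 microglia markers, 4 of 6 astrocyte markers and 3 of 5 markers of oligodendrocyte precursors were called lower by edgeR. By DESeq2 these counts were 2, 5, 5 and 3, and the part of these cells was not tested. *Pola1* was lower by 0.99 (standard error 0.18, edgeR adjusted p = 0.00291), *Pold1* by 0.73 (0.12, 0.00196) and *Cenpa* by 1.68 (0.37, 0.00894), while the polymerase alpha subunit *Pola2* was higher by 0.77 (0.17, 0.0092) and the transcription factor *E2f1* by 0.86 (0.15, 0.00232), all in 13 of 13 alternatives. *Ccnb2* at -1.20 (0.0348), *Rad1* at -0.42 (0.0247), *Rad9* at -0.33 (0.0199) and *Orc5* at 0.32 (0.0435) were also called and lost their call in 5, 6, 4 and 8 of 13 alternatives, with an adjusted p of up to 0.128, 0.0891, 0.0759 and 0.155. For *Orc5* the 8 include the replicate block (0.0658), which pairs no mice between treatments. The lesion effect on *Pold1* was lower by 0.64 after chronic L-DOPA (0.16, interaction test, adjusted p = 0.029), a call lost with any of 7 single libraries left out (up to 0.0838). The comparisons share libraries, so their values are given side by side. No gene of the 4 lists was called between the unlesioned groups by edgeR or DESeq2, with 8 higher and 4 lower at an unadjusted p under 0.05.

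**Figure D5:**
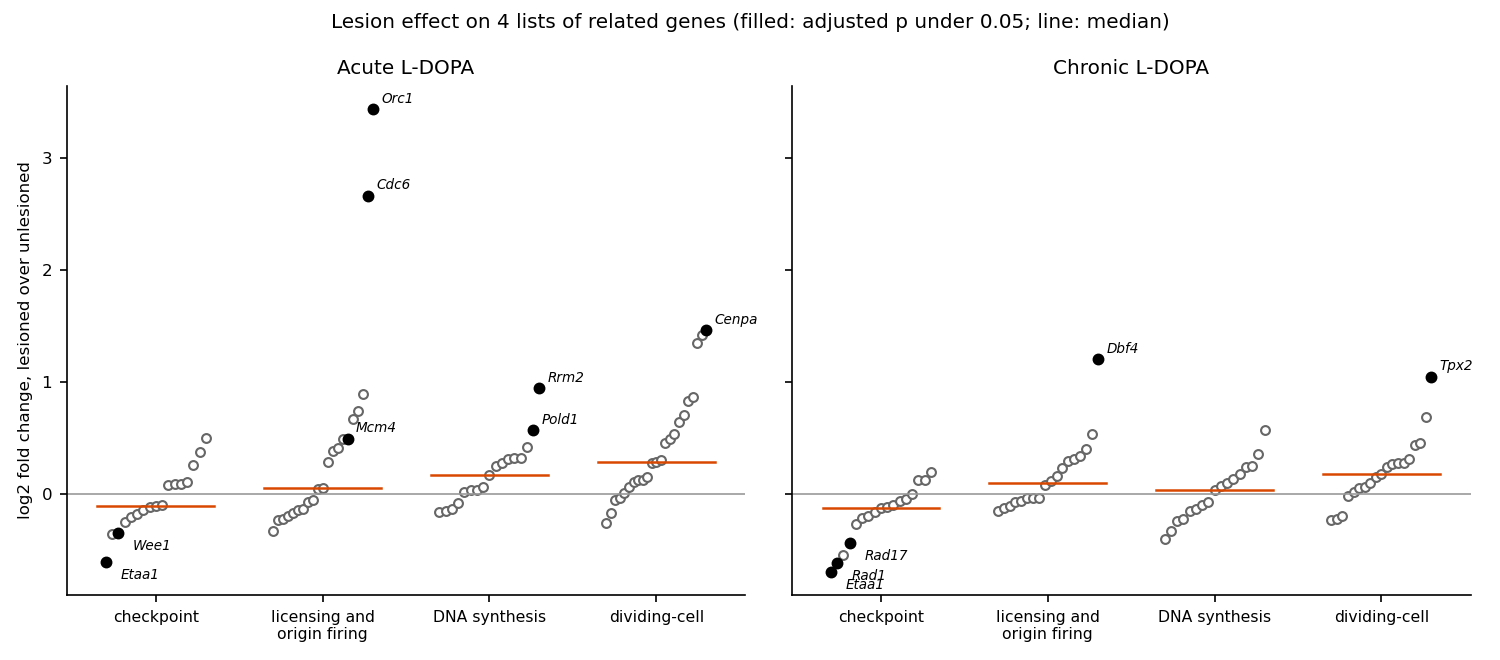
Log2 fold change of lesioned over unlesioned striatum (y axis) of each tested gene of the 4 lists (x axis) after acute (left) and chronic L-DOPA (right), filled and named where the adjusted p was under 0.05, with the list median as a line. *Orc1* at 3.44 and *Cdc6* at 2.66 stand highest after acute L-DOPA, and the called checkpoint genes lie below 0 in both panels.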

How the data were processed

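RNA-seq libraries of 12 striatal samples, in 4 groups of 3, were made with a TruSeq kit and mapped by the authors to mm9 with Genomatix software. The authors deposited raw read counts per transcript for 189660 transcripts, of which 296 name no gene (0.0485% of counts). Strand and multiple-mapping settings are not given in the sources used here. Their normalized columns and their 3 tables of comparisons, which hold fold changes and p-values, were not used (48 columns of per-sample values).

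Counts were fitted with edgeR 4.0.16 (R 4.3.3, limma 3.58.1): filterByExpr by group, TMM, glmQLFit and glmQLFTest, with Benjamini-Hochberg adjustment over all transcripts, called at an adjusted p under 0.05. Comparisons of 2 groups used 6 libraries and the change of the lesion effect all 12. Each gene was read from its transcript with the highest mean count, and the shares of all genes called are over 1 transcript per symbol. Members called were counted over the 9 genes besides *Clspn*. The listed alternatives were DESeq2 1.42.0, its size factors, no filter, 1 transcript per gene, counts summed over transcripts, a replicate block, a fit on all libraries, each library left out, and an adjusted p under 0.01. The scripts were tested on simulated data.

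Same-numbered lesioned and unlesioned libraries deviated together from their group means over 12794 genes (r of 0.472, 0.465 and 0.385 after acute, and 0.515, 0.572 and 0.159 after chronic L-DOPA, all above the limit of 0.1). Each library correlated best with its own number, although chronic lesioned 1 and unlesioned 3 also reached 0.153, close to the lowest same-numbered value. The numbers were therefore taken to pair the 2 sides of a mouse, although the series design counts 12 mice. The fits reported leave this pairing out, and the replicate block is the alternative that uses it for comparisons of the sides. Between the treatments same-numbered libraries came from different mice, so there the block pairs nothing. Their r was -0.0942, -0.148 and 0.233 for the lesioned and -0.0681, -0.0172 and 0.141 for the unlesioned libraries. Replicates differed beyond sampling noise (chi-square per degree of freedom from 5.9 to 21.8). Reads carry no molecular identifiers, so counts and floors cover counting error only.

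The 10 genes and all lists were chosen with earlier results of these data known. Of the lists, the called genes with the largest change were named, up to 3 per list and comparison, with a mean of at least 0.1 CPM. The 5 genes most like *Clspn* were those with the highest r at a mean of at least 1 CPM.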

Additional observations from a re-analysis of the deposited data

Results flagged for a closer look

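The lesion effect on *Mcm5* differed between the 2 treatments by 0.72 on the log2 scale (standard error 0.17, edgeR's interaction test, adjusted p = 0.0224), with log2 fold changes of 0.036 after acute and 0.75 after chronic L-DOPA. Of the 9 genes besides *Clspn* no other passed this test in the fit reported. The call was lost without acute unlesioned library 1 or 2, acute lesioned library 1 or 3, chronic unlesioned library 3 or chronic lesioned library 1, with an adjusted p from 0.0504 to 0.0573. It is listed here because the effect differed between the treatments by that test.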

How the results depend on the processing

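The number of called members besides *Clspn* was 1 after acute L-DOPA. It was 2 with DESeq2 size factors, 2 without a filter on low counts, 2 with the replicate block, and 1 to 3 with a library left out. After chronic L-DOPA it was 3 under every alternative run. Between the lesioned groups it was 2, with 3 without a filter on low counts, 3 in the fit on all 12 libraries, 1 at an adjusted p under 0.01 and 1 to 6 with a library left out. Between the unlesioned groups it was 1, with 0 at an adjusted p under 0.01 and 0 to 1 with a library left out. For the change of the lesion effect it was 1, with 2 under the replicate block, 0 at an adjusted p under 0.01 and 0 to 1 with a library left out. The block changed no other call of a member. The shares of all genes called belong to the fits reported, and none is given for an alternative. Of 630 alternative values of the 9 genes besides *Clspn*, 578 kept their direction and call, 15 lost and 13 gained a call, and 24 changed sign, none of them called in the fit reported.

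With counts summed over transcripts, *Atr* moved to -0.041 after acute L-DOPA and to 0.0022 between the lesioned groups, and *Mki67* to -0.16 between the unlesioned groups. With a library left out, the log2 fold changes after acute L-DOPA ran from -0.044 to 0.087 for *Atr* and from -0.014 to 0.072 for *Mcm5*. After chronic L-DOPA they ran from -0.18 to 0.075 for *Tipin*, -0.23 to 0.61 for *Chek1*, -0.53 to 0.54 for *Mki67* and -0.50 to 1.06 for *Top2a*. Between the lesioned groups they ran from -0.0080 to 0.19 for *Mcm2* and -1.08 to 0.0052 for *Mki67*. Between the unlesioned groups they ran from -0.12 to 0.084 for *Timeless*, -0.39 to 0.10 for *Chek1*, -0.28 to 0.52 for *Mki67*, -0.96 to 0.38 for *Top2a* and -0.014 to 0.064 for *Pcna*. The cause of these changes was not tested. *Chek1*, *Mki67* and *Top2a* rest on 8 to 109 counts per library, which limits what can be resolved for them.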
